A study of Bos taurus with 18 samples.

Results

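The small leucine-rich proteoglycans are secreted proteins with a short, curved core of leucine-rich repeats, and most of them carry 1 or a few sugar chains. They bind fibrillar collagens and set the width and spacing of fibrils, and several of them also bind growth factors and cell surface receptors. Decorin (DCN), biglycan (BGN) and asporin (ASPN) form the first class of the family. Decorin and biglycan carry chondroitin or dermatan sulphate, whereas asporin carries no such chain. Fibromodulin (FMOD), lumican (LUM), PRELP and osteomodulin (OMD) belong to the class whose members can carry keratan sulphate, epiphycan (EPYC) and osteoglycin (OGN) to a further class, and chondroadherin (CHAD) is a chain-poor member that binds collagen and integrins in cartilage. These 10 genes were taken by symbol from the count tables, which list 16989 genes, and all 10 were found.

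Counts came from bovine mesenchymal stem cells (MSCs) of the bone marrow, grown on plastic in DMEM with serum and antibiotics and collected at passage 1 in monolayer, before any chondrogenic induction. The 17 clones (A to Q) each grew from 1 cell, and 1 heterogeneous population was not cloned. All 18 libraries came from the same donor and had no treatment or genetic change. Each clone was sequenced once, so a clone has no replicate error of its own, and every spread below is that between clones, biological and technical error together. Reads on genes ranged from 11484812 to 18458157 per clone (median 14193790), and the heterogeneous library had 16092501. Levels are given as CPM after TMM scaling (counts of a gene scaled to a common library size), which corrects library sizes for a few very abundant genes but not for transcript length, so levels of different genes are not compared. In bulk RNA, fewer cells that use a gene and less RNA per cell cannot be told apart.

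Of the marrow stromal marker list, 9 of 10 genes passed the filter on low counts and the summed level ran from 1522 to 3726 CPM in the clones, with 2175 CPM in the heterogeneous library. Erythroid markers summed to at most 0.68 CPM in any library, with HBB and HBA at 0 reads in all of them. Macrophage markers summed to 2.41 to 7.23 CPM in the clones and to 163 CPM in the heterogeneous library, and 14 of 15 of them were above every clone there. The share of all genes above every clone in that library was not counted. Endothelial markers summed to 17.4 to 76.0 CPM in the clones and to 26.6 CPM in the heterogeneous library. Of the 8 listed, 4 had a CPM above 1 in at least 1 clone (PECAM1, VWF, TEK and ERG), whereas CDH5 and CLDN5 had 0 reads throughout. Over the 8 members without separate sets of clones (defined with asporin below), Pearson r with log2 total ran from 0.09 (FMOD) to 0.49 (LUM). LUM had an unadjusted permutation p of 0.0432, and 0 of 8 passed a Benjamini-Hochberg adjusted permutation p of 0.05 (smallest adjusted p = 0.345, n = 17).

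Transcripts of 8 members were well counted in every library, CHAD had few reads, and EPYC was at the limit of detection. The lowest count of the 8 was 196 reads, for OMD in clone G, and the highest was 153528, for FMOD in clone Q. EPYC had 12 reads over all 18 libraries, with 0 to 2 per library and 0 in 9 of them. The exact 95% Poisson interval of a count of 0 reaches 3.69 reads, so the level of EPYC could not be measured at this depth. CHAD had 8 to 47 reads per clone. The exact 95% Poisson interval was 3.45 to 15.8 reads for the lowest clone and 34.5 to 62.5 for the highest, which covers counting error only. The other 8 members were counted with a relative Poisson error of at most 7.14%, far smaller than their spread between clones.

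**Figure D1:**
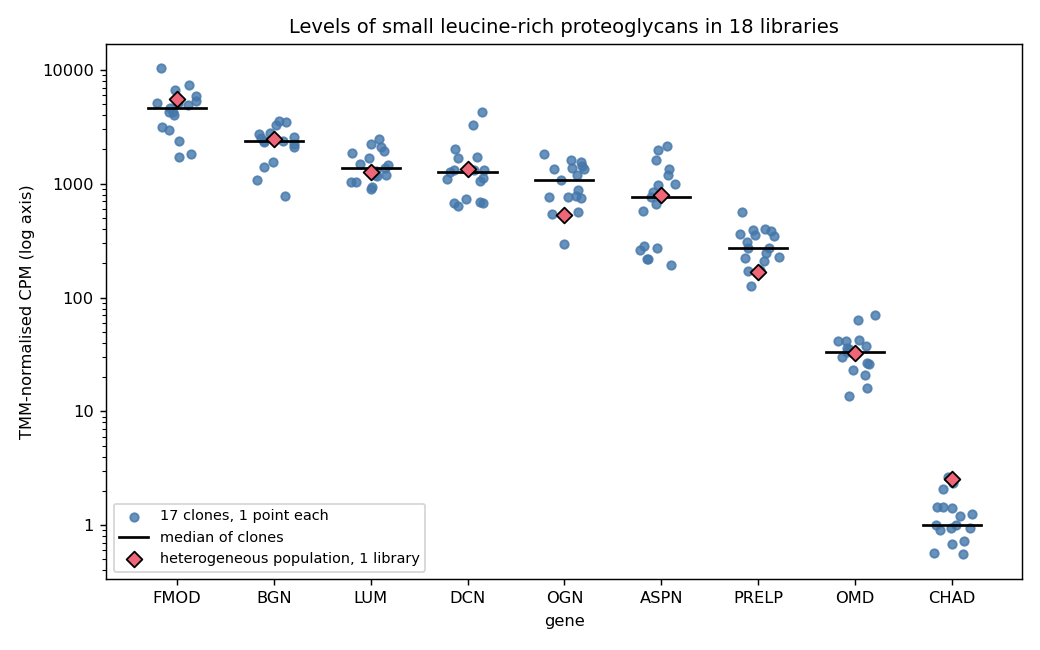
Levels of 9 members (EPYC left out) in TMM-normalised CPM on a log axis. Each blue point is 1 clone, the bar is the median of the 17 clones and the diamond is the heterogeneous population. The heterogeneous diamond lies inside the range of the clones for every gene drawn, and ASPN shows an empty interval between its lower and upper clones. Levels are not divided by transcript length.

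Among the class of decorin, DCN ran from 637 CPM in clone O through a median of 1262 to 4269 in clone N (SD 0.79 log2 units, n = 17 clones). Clones N and Q (3306 CPM) stood above the other 15, of which the highest was clone P at 2012. BGN ran from 783 CPM in clone D through a median of 2391 to 3592 in clone P (SD 0.59). ASPN had the widest spread of the 9 members that passed the filter of 1 CPM in at least 1 clone, from 193 CPM in clone O through a median of 759.9 to 2155 in clone M (SD 1.19, an 11.2-fold range). Its SD exceeded that of 96.2% of the 11477 genes kept by this filter. For scale, aggrecan (ACAN), the large proteoglycan of cartilage, had an SD of 2.11 and beta-actin (ACTB) one of 0.37.

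The levels of asporin fell into separate sets. Clones O, G, C, I, H and L had 193, 216, 219.8, 262, 270.4 and 283 CPM, and the next clone, A, had 581. The remaining 11 rose without a comparable gap to 2155 CPM. This interval was 1.04 log2 units wide, or 29.8% of the range of the clones. With a limit of 25% of the range and at least 4 clones on each side, set after these values were seen, none of the other 8 members kept had separate sets, and 6.13% of the 11477 genes did. The 6 clones lowest in asporin were also the 6 highest in each of the 8 cycling-cell genes listed, among them MKI67, TOP2A and PLK1. These 8 genes mark the same cells, so they are not 8 separate observations. The share of all genes with the same 6 clones highest was not counted, so whether this order is particular to cycling genes was not tested. MKI67, a protein of dividing nuclei, had 195 to 590.0 CPM in these 6 clones and 21.6 to 141 in the other 11.

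In the keratan sulphate class, FMOD ran from 1721 CPM in clone I through a median of 4651 to 10336 in clone Q (SD 0.69 log2 units). Clones I and G (1834 CPM) were lowest, and Q was 1.40-fold above the next clone, N. LUM varied least of the 9, from 896 CPM in clone L through 1384 to 2477 in clone Q (SD 0.45). PRELP, which anchors basement membrane to the tissue below, ran from 126 CPM in clone D through 272 to 567 in clone N (SD 0.55). OMD, first known from bone, ran from 13.6 CPM in clone G through 33.1 to 70.6 in clone N (SD 0.61). OGN, also called mimecan, ran from 293 CPM in clone D through 1084 to 1816 in clone H (SD 0.70). CHAD ran from 0.55 CPM in clone L through 1.01 to 2.66 in clone P (SD 0.55), and counting error makes up part of this last spread. All 9 had an SD above the median of all genes (0.32). Of the extremes, clone D was lowest in BGN, PRELP and OGN, and clone N was highest in DCN, PRELP and OMD. The clones were not ordered alike by the members, since the 9 lowest values lay in 5 clones and the 9 highest in 5 others.

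**Figure D2:**
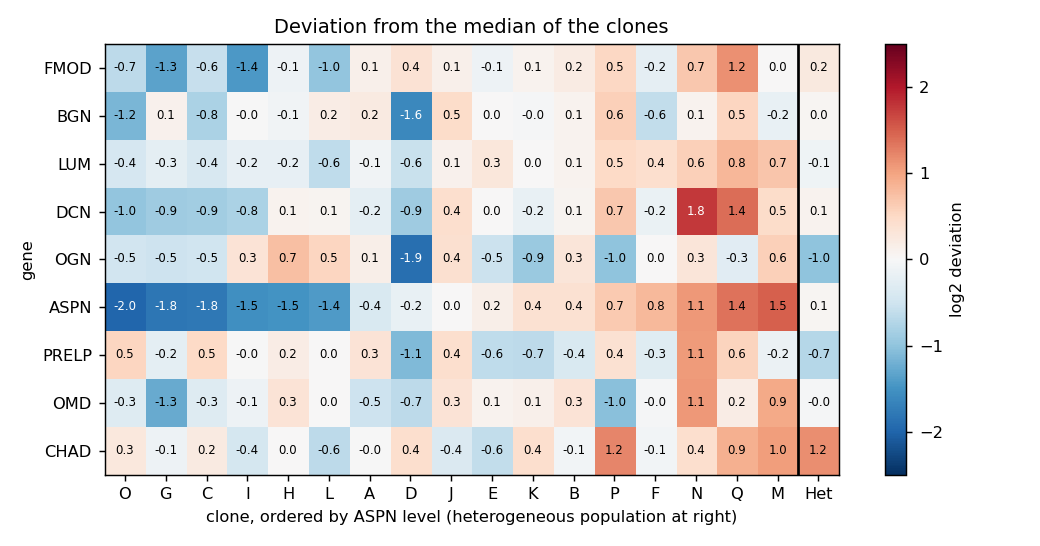
Deviation of each library from the median of the 17 clones, in log2 units, for 9 members (rows). Clones are in columns, ordered by ASPN level, and the heterogeneous population is at the right. The low ASPN values of clones O, G, C, I, H and L stand at the left, clone D is low in BGN, OGN and PRELP, and clones N and Q are high in DCN.

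The heterogeneous population was compared with the 17 clones to see whether cloning left the family at another level. Its levels lay within the range of the clones for all 9 members tested. It had 1339 CPM of DCN, 2473 of BGN, 791 of ASPN, 5511 of FMOD and 1279 of LUM, and between 7 and 13 clones were below it in each of these 5 genes. For PRELP (167 CPM) and OGN (536 CPM) clone D alone was lower. For CHAD (2.56 CPM, 39 reads) clone P alone was higher, and OMD, at 32.5 CPM, was near the median. In edgeR's quasi-likelihood test 0 of 9 members passed an adjusted p of 0.05, and 0 of 9 had an unadjusted p under 0.05. Of all 11878 genes tested, 1.22% were called (144 higher, 1 lower) and 7.68% had an unadjusted p under 0.05. EPYC did not pass the filter on low counts. With no filter its log2 difference was 0.50 (edgeR, 95% interval -2.60 to 3.60, adjusted p = 0.922), from 1 read in the heterogeneous library.

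The largest differences were those of CHAD, OGN and PRELP. By that edgeR test the log2 difference, heterogeneous minus clones, was 1.03 for CHAD (standard error 0.61, 95% interval -0.25 to 2.3, adjusted p = 0.698), -0.99 for OGN (0.70, -2.45 to 0.47, adjusted p = 0.728) and -0.83 for PRELP (0.57, -2.02 to 0.36, adjusted p = 0.726). In the other 6 the difference ran from -0.22 (LUM) to 0.23 (FMOD). With 1 library on one side, the intervals are wide, and for ASPN the interval ran from -2.41 to 2.18. The test takes the spread of this 1 library from that of the clones. DESeq2's Wald test and limma also called 0 of 9.

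**Figure D3:**
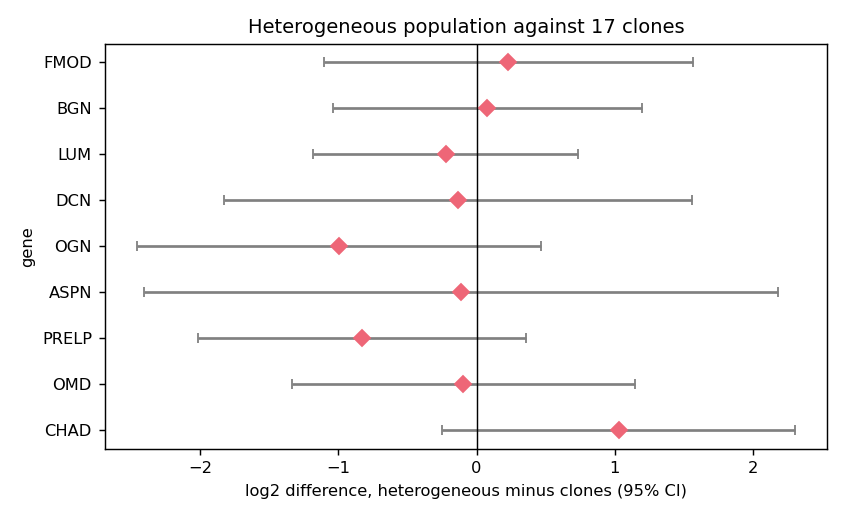
Log2 difference of the heterogeneous population from the 17 clones for 9 members, from edgeR's quasi-likelihood fit. Points are estimates and bars are 95% intervals. All 9 intervals include 0, and the widest is that of ASPN.

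The partners of the family were compared in the same way. Among other leucine-rich repeat proteins of the matrix, 0 of 6 tested passed (median log2 difference -0.39, against -0.04 over all genes). Among enzymes that build or sulphate the sugar chains, 0 of 25 passed (median -0.26), and among collagens that bind the family 0 of 12 (median 0.00). Ligands and receptors reported to bind family members gave 0 of 18 (median 0.18). Of 11 proteases that process or cut members, 1 was higher, MMP9, a gelatinase, at log2 7.30 (edgeR, standard error 0.86, adjusted p = 2.69e-05), from 10509 reads where the clones had 1 to 229. In the macrophage list the median log2 difference was 5.49 over the 11 tested. It was 4.43 for CD68, 6.91 for MSR1, 7.44 for CD163 and 3.42 for FCER1G. Only 3 of the 15 listed had a CPM above 1 in a clone. The filter needs a sufficient level in 1 library only, so the heterogeneous library could itself bring a listed gene into the test. CD163, a scavenger receptor, was counted 667 times in the heterogeneous library and at most 12 times in any clone. The cycling list had 0 of 8 called (median log2 difference -3.20, 2 with an unadjusted p under 0.05), but its summed level was 52.5 CPM against 72.8 to 1414 in the clones, and all its genes except CDK1 were below every clone. The share of all genes that lay below every clone in this 1 library was not counted. The ASPN level of the heterogeneous library was above 9 of 17 clones, near the middle of their order. Whether macrophages or cycling cells had a part in the member levels of this library was not tested.

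Single clones were then set against the other 16, in 17 comparisons that share clones. In edgeR's quasi-likelihood test, 0 of 153 member-by-clone tests passed an adjusted p of 0.05, and 10 had an unadjusted p under 0.05. DESeq2's Wald test was run as an alternative, and its shares over all genes were not counted. Over all genes and clones, 0.0466% of 195109 edgeR tests were called and 4.4% had an unadjusted p under 0.05. Of the called genes, clone N held 87 (0.758% of 11477) and clone M 4 (0.0349%), whereas the other 15 clones had none (0.0%).

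The 10 differences with an unadjusted p under 0.05 lay in 6 clones. By edgeR, clone D was lower in OGN (log2 -1.93, standard error 0.64), BGN (-1.64, 0.52) and PRELP (-1.29, 0.53), each with an adjusted p = 0.952. Clone N was higher in DCN (1.72, standard error 0.55, adjusted p = 0.139 by edgeR), OMD (1.12) and PRELP (1.02). The others were OMD in clone G (-1.41), FMOD in clones I (-1.51) and Q (1.25), and CHAD in clone P (1.19). None of the 10 held after adjustment over all genes. The share of all genes with an unadjusted p under 0.05 was 4.43% in clone D, 3.12% in G, 1.86% in I, 16.7% in N, 5.97% in P and 5.95% in Q.

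To see which members vary together, Pearson r was taken over the 17 clones, on log2(CPM + 0.25), with a permutation p from 100000 resamples adjusted over all genes kept. The permutation takes the clones as independent, but clones C and O, both low in asporin, had near-equal levels of several members. They had 386 and 393 CPM of PRELP, 771 and 773 of OGN and 26.3 and 26.5 of OMD, but 1391 and 1077 of BGN. Whether these 2 clones are independent was not tested. Pooled values for asporin are not given, since its clones form separate sets. Of the 28 pairs of the other 8 members, 2 passed an adjusted p of 0.05 from both sides. DCN and LUM had r = 0.79 (permutation p = 0.00022, adjusted p = 0.0056 among the genes tested with DCN and 0.0129 with LUM) and rho = 0.76, and without clones N and Q, the farthest from the DCN median, r was 0.69. DCN and FMOD had r = 0.72 (permutation p = 0.00115, adjusted p = 0.0136 and 0.0134) and rho = 0.62 (permutation p = 0.0088, adjusted p = 0.0678). Without N and Q, r of DCN and FMOD was 0.57. Of the genes without separate sets, 11.2% passed with DCN in the positive direction and 8.21% in the negative, so a call with DCN is common.

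FMOD and LUM had r = 0.64 (permutation p = 0.0055), which passed among the genes tested with FMOD (adjusted p = 0.0313) and not with LUM (0.0508). DCN and BGN (r = 0.62, permutation p = 0.0089) and FMOD and CHAD (r = 0.60, permutation p = 0.0106) likewise passed from 1 side. BGN, OGN and OMD had 0 called genes (0.0%) among the 10773 without separate sets, by Pearson r or by rho, with 796, 675 and 1730 at an unadjusted permutation p under 0.05 for r. CHAD had 10 positive (0.0928%) and 12 negative (0.111%) calls by Pearson r and 0 by rho. OGN and OMD had r = 0.61 with each other (permutation p = 0.0098, adjusted p = 0.552 and 0.213). OGN and FMOD had r = -0.18 and PRELP and FMOD r = 0.17 (permutation p = 0.488 and 0.518).

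Within the asporin sets these relations differed in size, and the difference between sets was not tested. A set cut on asporin also holds a narrower range of genes that vary with asporin. In the 11 upper clones DCN and LUM had r = 0.81 (permutation p = 0.0023), DCN and FMOD r = 0.67 (permutation p = 0.0254), which was 0.09 without N and Q, and FMOD and LUM r = 0.35 (permutation p = 0.289). In the 6 lower clones the same pairs had r = -0.23, 0.40 and -0.07 (exact permutation p = 0.653, 0.401 and 0.881). DCN and PRELP, at r = 0.48 over 17 clones, had r = 0.85 in the upper set (permutation p = 0.00065, adjusted p = 0.0225 and 0.0416, rho = 0.80, 0.72 without N and Q) and -0.24 in the lower set (exact permutation p = 0.646), and it was the 1 pair called among the 28 in the upper set.

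For asporin itself, in the 11 upper clones r with LUM was 0.88 (permutation p = 0.00033, rho = 0.90, 0.89 without D and Q), with DCN 0.70 (permutation p = 0.0173, rho = 0.75) and with FMOD 0.38 (permutation p = 0.258, rho = 0.14). None of these passed adjustment from either side (smallest adjusted p = 0.0956, for DCN). In the 6 lower clones r was 0.93 with OGN (exact permutation p = 0.0403), 0.83 with DCN (0.0153) and -0.02 with LUM (0.985), and 0 pairs passed adjustment there. Asporin and MKI67 had r = -0.39 in the upper set (permutation p = 0.242, rho = -0.27, 0.18 without M and Q). In the lower set MKI67 itself lay in 2 groups of clones, so no value is given.

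**Figure D4:**
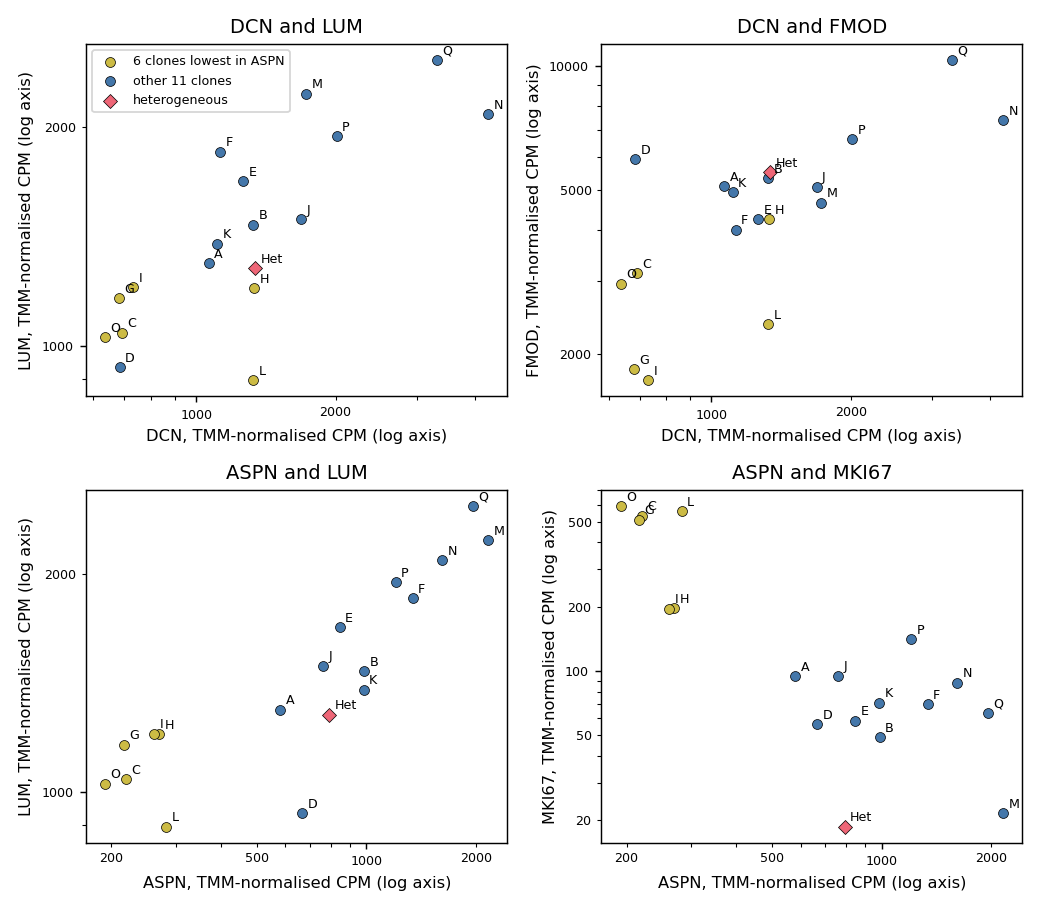
Levels of 4 gene pairs in each library, in TMM-normalised CPM on log axes, with clone letters beside the points. Yellow points are the 6 clones lowest in ASPN, blue points the other 11 and the diamond the heterogeneous population. Over the 17 clones r was 0.79 for DCN and LUM and 0.72 for DCN and FMOD, with clones N and Q at the upper end. Within the 6 yellow clones r of DCN and LUM was -0.23, and within the 11 blue clones r of DCN and FMOD was 0.09 without N and Q. In the last panel the 6 clones lowest in ASPN are the 6 highest in MKI67.

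Family genes lie in runs along the chromosomes, and neighbours were not all alike in how they varied. In the RefSeq table of ARS-UCD2.0, an assembly other than the bosTau7 of the counts and used here for order and overlap only, EPYC, KERA, LUM and DCN follow each other with 0 protein-coding genes between them. OGN, OMD, ASPN and ECM2 form another run and FMOD, PRELP and OPTC one more, whereas BGN and CHAD lie apart. Keratocan (KERA), the corneal member beside LUM, had 0 to 2 reads, where its neighbour LUM had at least 10481. The neighbours LUM and DCN had the r of 0.79 given above, OGN and OMD 0.61, and FMOD and PRELP 0.17. PRELP and opticin (OPTC, 4 to 62 reads) had r = 0.75 (permutation p = 0.00073, adjusted p = 0.0377, rho = 0.68, 0.56 without D and N), with 1.31% of genes passing in the positive and 1.58% in the negative direction. In that other assembly OGN, OMD and ASPN overlap CENPP and CHAD overlaps ACSF2, which was not checked in bosTau7, and the strand used in counting is not given in the sources used here. CENPP had 15 to 147 reads per library, fewer than OMD, the lowest of these 3, had in any library. ACSF2 had 483 to 2148, more than CHAD.

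Among the other repeat proteins, 5 passed the 1 CPM filter. ECM2, the neighbour of asporin, had r = 0.84 with DCN (permutation p = 2e-05, adjusted p = 0.0016, rho = 0.81, 0.69 without N and Q) and 0.76 with FMOD (permutation p = 0.00031, adjusted p = 0.0066, rho = 0.69, 0.66 without G and I). Podocan (PODN) had r = 0.81 with FMOD (permutation p = 9e-05, adjusted p = 0.0036, rho = 0.84) and 0.70 with LUM (permutation p = 0.0018, adjusted p = 0.0328, rho = 0.67, 0.54 without M and Q). With FMOD, 11.8% of genes passed in the positive direction and 9.77% in the negative, and with LUM 5.27% and 4.51%.

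The lists of partners were read against these shares. Apart from COL1A1, ACAN and COL2A1, every list gene named here and below with a member is one that passed. Of 24 chain enzymes without separate sets, 3 passed positively with FMOD (XYLT2, CSGALNACT2, CHPF) and 1 negatively (CHST1), against the 11.8% and 9.77% of all genes. DCN had 2 positive (CSGALNACT2 and TPST1), LUM had CHST14 negative (r = -0.64) and PRELP had XYLT1 positive (r = 0.72). CHST1, a keratan sulphate sulphotransferase, was also negative with DCN (r = -0.82, permutation p = 9e-05, adjusted p = 0.0033, rho = -0.83, -0.76 without N and Q) and LUM (r = -0.67, permutation p = 0.0032, adjusted p = 0.0418). Of 12 collagens, COL6A3 and COL11A1 passed with FMOD (r = 0.67 and 0.64), COL5A2 with LUM (r = 0.72), with adjusted permutation p = 0.0214, 0.0327 and 0.0305, and 0 with DCN, whose main partner in fibrils, COL1A1, had r = -0.42 (permutation-based adjusted p = 0.212) and 0.11 without N and Q.

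Of 17 ligands and receptors, FMOD had 4 positive (TGFB2, TGFBR2, BMP4 and TLR4, r from 0.65 to 0.74) and 2 negative (TGFB1, r = -0.64, and WISP1, r = -0.73). DCN had TGFBR2 positive (r = 0.71, but 0.38 without N and Q) and WISP1 negative (r = -0.69, -0.39 without N and Q). PRELP had MET, the receptor of hepatocyte growth factor (r = 0.78). Of 10 proteases, 3 passed with FMOD, all positive: the gelatinase MMP2 (r = 0.82), the aggrecanase ADAMTS5 (r = 0.77) and the collagen-cutting cathepsin CTSK (r = 0.69). These values come from 17 clones, each tested by permutation with an adjusted p from 0.0029 to 0.0317. ADAMTS5 also passed with LUM (r = 0.71).

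Of the cycling-cell list, 6 of 6 genes without separate sets were negative with FMOD over the 17 clones (r from -0.74 to -0.61), against 9.77% of all genes. The asporin sets also separate the clones by these genes, so each set holds only part of their range. The summed cycling list ran from 72.8 to 362 CPM in the 11 upper clones and from 504 to 1414 in the 6 lower ones. In the 11 upper clones r of FMOD with these 6 genes ran from 0.02 to 0.45, so the negative r was not seen there. In the 6 lower clones it ran from -0.31 to -0.07. Each set has fewer clones and a narrower range, and the difference from the pooled r was not tested. With LUM 1 of 6 passed (BUB1, r = -0.72), and with the other 6 members 0 of 6. ACTB was negative with FMOD (r = -0.77, adjusted permutation p = 0.0062, rho = -0.76, -0.81 without G and I) and with DCN (r = -0.64, adjusted permutation p = 0.0344, -0.46 without N and Q). PRELP had 3 of 8 marrow stromal genes positive (NT5E, PDGFRA and CXCL12), against 1.31% of all genes. Of 7 chondrocyte genes it had 1 positive, SOX9, the transcription factor of cartilage (r = 0.77, adjusted permutation p = 0.0309, 0.75 without D and N). Of 5 adipocyte genes it had 1 positive, the adipokine ADIPOQ (r = 0.79). Of 4 endothelial genes, TEK, the angiopoietin receptor, was positive with FMOD (r = 0.88), DCN (0.82) and LUM (0.75), and VWF with DCN (0.66) and LUM (0.64). CSF1R, a macrophage receptor, was negative with FMOD (-0.65) and DCN (-0.63), 1 of 3 in its list. DCN was positive with VCAM1 (0.71), 1 of 8 marrow stromal genes, and with FABP4 (0.62) and LPL (0.64), 2 of 5 adipocyte genes. It was negative with SP7 (-0.61), 1 of 5 osteoblast genes. The shares of all genes with DCN were 11.2% positive and 8.21% negative. For all 4 genes r with DCN was between -0.30 and 0.39 without N and Q. The tenocyte list had 0 of 2 passing with any member and the erythroid list no gene to test. ACAN passed with 0 members, and its r ran from -0.36 (OGN) to 0.56 (PRELP) over the 8 members. COL2A1, the main collagen of cartilage, also passed with 0 members.

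The genes nearest to each member were taken from all genes, and their r is a description of the likeness in 17 clones. Nearest to DCN were ITM2B (r = 0.96), NR3C1, the glucocorticoid receptor (0.94), and ACADSB (0.93), with MRPS18A most opposite (-0.97). FMOD had NUCB1 (0.96), CD99L2 (0.95) and BACE1 (0.93). NUTF2 was most opposite to FMOD, and as its clones form separate sets its r is given as -0.91 in the 11 upper and -0.68 in the 6 lower asporin clones. LUM had CACNA1G, GLT8D1 and HIST1H2AC (0.88 each), with RAC1 opposite (-0.92). In the 11 upper asporin clones r of LUM with these genes was 0.88, 0.77, 0.86 and -0.86. In the 6 lower clones it was 0.42, 0.77, -0.29 and -0.67, and none of them passed adjustment within either set. PRELP had APOA1 (0.93), ZNHIT1 (0.92) and MMP16 (0.89), with FAM118A opposite (-0.93). For CHAD these were ZNF319 (0.85), NAIF1 (0.84) and GTPBP3 (0.82), with ZNF774 opposite (-0.89). Over the 17 clones, all of these except NUTF2, whose pooled value is not given, passed an adjusted permutation p of 0.05. Within the 6 lower asporin clones none of them did.

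For BGN, OGN and OMD the nearest genes did not pass adjustment. They were ARMCX2, FAM166B and SMIM4 for BGN (r from 0.78 to 0.81, opposite ARFGEF2 at -0.81), RAB8B, CEP89 and ZNF91 for OGN (0.80 to 0.82, opposite GDAP1L1 at -0.78), and CERS6, DUS4L and AP5M1 for OMD (0.80 to 0.85, opposite TEAD3 at -0.83). For ASPN the genes outside the family ranked nearest over all 17 clones were ARV1, NSUN6 and BCL2L2. That ranking rests in part on the gap between its sets, so the pooled r is not given. Within the sets none of them passed adjustment, with r of 0.81, 0.76 and 0.68 in the 11 upper clones and 0.36, 0.69 and 0.37 in the 6 lower ones, and SUN2, the most opposite, had -0.90 and -0.56.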

How the data were processed

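Poly-adenylated RNA was sequenced by the authors with 50-bp single-end reads, aligned to bosTau7 with STAR 2.3.0e and counted with HTSeq on RefSeq genes (annotation release 103). What the authors deposited are raw counts, not normalized. The strand setting and HTSeq version are not given in the sources used here. The 5 tally lines that name no gene were left out. Their share of the reads ran from 18.96% in clone A to 26.98% in clone N, with clone L next at 25.01%. A table of the whole series held the same counts, with 0 of 305892 values differing.

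Counts were tested with edgeR 4.0.16 (TMM, glmQLFit, glmQLFTest; R 4.3.3) with Benjamini-Hochberg adjustment over all genes. For the heterogeneous comparison genes passed filterByExpr, and otherwise a CPM above 1 in at least 1 clone. DESeq2 1.42.0 and limma 3.58.1 were alternatives. Correlations, levels and figures used Python 3.11.15, numpy 2.4.6, scipy 1.17.1, pandas 2.3.3, numba 0.67.0 and matplotlib 3.10.9, with 100000 permutations (smallest possible p 1e-05) or all orders of 6 clones. Count and correlation steps were tested on simulated data. Standard errors are the log2 difference divided by the root of F.

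The genes named are the 10 members, the 3 most alike and 1 most opposite to each, list genes called in the heterogeneous comparison (at most 4 per list), and ACAN, COL1A1, COL2A1, MKI67 and ACTB. Other names were chosen after their values were seen, as was the rule for separate sets. Members and lists were chosen with earlier results of these data known. Symbols matched the RefSeq table (ARS-UCD2.0) for 15471 genes and for 10 of 10 members. Matrix deposition of the clones was not analysed here.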

Additional observations from a re-analysis of the deposited data

How the results depend on the processing

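The count of members called was 0 in the heterogeneous comparison under DESeq2 size factors, library totals, DESeq2's Wald test, limma, no filter, each clone left out and clones M and N left out, and 0 in the single-clone comparisons under DESeq2 size factors, library totals, no filter and DESeq2's Wald test. The pair count of 2 became 1 with Spearman rho (DCN and LUM) and 1 in the 11 upper asporin clones (DCN and PRELP), an alternative chosen after seeing the data that also has fewer clones. It was 2 with library totals, DESeq2 size factors, a pseudocount of 1 CPM, 18 libraries, and without clone N or clone O (both also added after seeing the data). With each clone left out in turn r ran from 0.73 to 0.86 for DCN and LUM and from 0.64 to 0.82 for DCN and FMOD, with the lowest value of each without clone Q. The log2 differences of the heterogeneous population in ASPN, DCN and OMD changed sign, still uncalled, with limma (0.31, 0.09 and 0.03) and without clones M and N (0.14, 0.08 and 0.10), as did that of ASPN without clone M (0.03) or clone Q (0.02), those of DCN (0.06) and OMD (0.01) without clone N, and that of BGN with library totals (-0.01). The SD of CHAD went from above 75.8% of genes to 65.3% with a pseudocount of 1, as its level is near 1 CPM. Depth limits EPYC and CHAD. No paired analysis was possible because the labels name no pairs and there is 1 heterogeneous library.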

Other observations

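Other class members outside the 10 genes were also expressed. PODN ran from 4.36 CPM in clone L to 206 in clone M (SD 1.42 log2 units, n = 17 clones), a spread above that of 98.4% of genes, and the heterogeneous library had 183 CPM, above 16 of 17 clones. Tsukushi (TSKU), a secreted repeat protein that modulates growth factor signals, had 48.9 CPM in the heterogeneous library, below all 17 clones (49.5 to 123). Its distance from the lowest clone, K, was within the counting error of its 745 reads (exact 95% Poisson interval 692.5 to 800.5). Nyctalopin (NYX) had 0 reads in every library, and CHADL, a relative of chondroadherin, had 0 to 13 reads.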
